A study of Mus musculus with 3 samples.

Results

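The levels of 8 transcription factors that mark the identity of pyramidal neurons were examined in hippocampal cells sorted by fluorescence-activated cell sorting (FACS). The factors were Zbtb20, Neurod1, Neurod2, Neurod6, Emx1, Lhx2, Bcl11a and Bcl11b, chosen by name from 52636 genes in the count table, and all 8 were matched to their Ensembl IDs through GENCODE vM21. The samples, labelled as CA1 pyramidal neurons, were live tdTomato-positive cells from male C57BL/6J mice of postnatal day 28 to 32 that carried Camk2a-Cre +/- and Ai14 +/-, and no other genotype, treatment or unsorted tissue was analysed here. The Camk2a promoter drives Cre in part of the excitatory neurons of the forebrain, and Ai14 expresses tdTomato in a cell and its progeny once Cre has acted. Each of the 3 biological replicates pooled cells from 2 to 4 mice, and poly(A) RNA was sequenced. With 1 condition, the results are levels, their order and their spread between replicates.

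These proteins belong to several families of DNA-binding factors. NEUROD1, NEUROD2 and NEUROD6 are basic helix-loop-helix (bHLH) proteins that pair with E proteins and bind E-boxes, and they drive the differentiation of excitatory neurons. EMX1 and LHX2 are homeodomain proteins that pattern the dorsal telencephalon, from which the hippocampus arises. ZBTB20 is a BTB and zinc finger repressor needed to form the CA1 field in mice, while the zinc finger proteins BCL11A (CTIP1) and BCL11B (CTIP2) have been found with the BAF chromatin remodelling complex.

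Depth differed between the libraries, with 15833075 to 48159841 assigned counts. Nuclear protein-coding genes took 79.4% to 82.0% of the counts and genes of the mitochondrial genome 7.09% to 10.6%. The 8 factors together took 0.267%, 0.281% and 0.299% of the counts in replicates 1, 2 and 3. Levels are given as TPM, which is the count divided by the length of the merged exons and scaled over nuclear protein-coding genes. In these units the 8 CA1 markers, among them Wfs1 and Fibcd1, reached a median level of 242 ± 8.08 TPM (SD, n = 3). The median was 89.6 ± 2.77 TPM for 6 markers of dentate granule neurons and 91.5 ± 16.2 TPM for 6 markers of oligodendrocytes. The samples thus carried the markers of their label, and those of other hippocampal cells as well. The dentate granule marker C1ql2 had 621 TPM, above Fibcd1, the highest CA1 marker, at 450 TPM. It was the only marker of these dentate granule and oligodendrocyte lists to lie above Fibcd1. In bulk RNA, fewer cells of a type and less RNA per cell cannot be told apart.

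The 8 genes differ widely in structure, which bears on every level given per length. The NeuroD genes are short and have 2 merged exons each, Neurod2 at chr11:98325415-98329648, Neurod6 at chr6:55677822-55681263 and Neurod1 at chr2:79452521-79456751 of GRCm38, all on the minus strand. Emx1 lies at chr6:85187438-85204462 and Lhx2 at chr2:38339281-38369733, both on the plus strand. Bcl11a lies at chr11:24078056-24174123 on the plus strand and Bcl11b at chr12:107910403-108003602 on the minus strand. Zbtb20 is the longest of the 8, with 28 merged exon blocks over 766722 bp at chr16:42875881-43642602 on the plus strand. Its merged exons amount to 30730 bp, against 2150 bp for Neurod6, the shortest. The merged exons of 5 of the 8 genes share no base with another gene of the table, while 0.609% of the exon bases of Zbtb20, 2.40% of those of Bcl11a and 13.0% of those of Neurod1 are shared. The bases of Neurod1 are shared with Cerkl, on the same strand, and with the noncoding Gm26755, on the opposite strand, which had 144, 65 and 59 counts and 1, 0 and 1 counts. Those of Bcl11a are shared with the antisense gene 4930538E20Rik, which had 121, 98 and 54 counts. Strand use in the counting is not stated in the sources used, so reads of a gene and of its antisense partner may not be separable there.

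The promoters of 4 of the factors are printed because the CG content of this sequence divided the more abundant factors from the less abundant by TPM. Each run holds 250 bases before and 50 after the transcription start, 5′ to 3′ on the strand of the gene, from RefSeq on GRCm38.p6, and the capitals mark CG pairs.
Neurod2: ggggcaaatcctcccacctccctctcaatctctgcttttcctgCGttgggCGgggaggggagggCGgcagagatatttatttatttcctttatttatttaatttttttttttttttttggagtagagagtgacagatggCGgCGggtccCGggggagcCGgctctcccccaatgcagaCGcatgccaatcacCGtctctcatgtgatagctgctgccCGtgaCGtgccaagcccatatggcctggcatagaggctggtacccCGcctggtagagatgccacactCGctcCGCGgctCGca
Neurod6: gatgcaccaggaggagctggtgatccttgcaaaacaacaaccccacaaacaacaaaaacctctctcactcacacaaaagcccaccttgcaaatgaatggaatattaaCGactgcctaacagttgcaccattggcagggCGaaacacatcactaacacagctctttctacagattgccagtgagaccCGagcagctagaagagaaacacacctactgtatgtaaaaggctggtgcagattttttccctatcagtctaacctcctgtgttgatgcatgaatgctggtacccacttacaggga
Neurod1: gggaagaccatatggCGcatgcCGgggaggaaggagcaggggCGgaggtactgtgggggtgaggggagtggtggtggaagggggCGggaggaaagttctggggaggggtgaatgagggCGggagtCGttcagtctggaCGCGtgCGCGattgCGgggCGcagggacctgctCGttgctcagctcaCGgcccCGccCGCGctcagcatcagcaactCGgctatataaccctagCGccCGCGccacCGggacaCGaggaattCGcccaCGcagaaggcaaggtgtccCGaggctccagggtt
Emx1: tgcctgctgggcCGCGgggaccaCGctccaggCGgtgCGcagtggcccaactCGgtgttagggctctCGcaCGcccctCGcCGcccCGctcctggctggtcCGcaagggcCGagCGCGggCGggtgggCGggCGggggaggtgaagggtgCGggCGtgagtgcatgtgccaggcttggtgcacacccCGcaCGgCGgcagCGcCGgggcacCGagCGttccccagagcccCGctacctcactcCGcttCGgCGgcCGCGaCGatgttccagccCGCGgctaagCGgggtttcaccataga

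These windows lie at chr11:98329596-98329895 for Neurod2, chr6:55681214-55681513 for Neurod6, chr2:79456587-79456886 for Neurod1 and chr6:85187681-85187980 for Emx1. Neurod6 held 3 CG pairs and Neurod2 held 16, while Neurod1 held 26 and Emx1 held 37. The promoters of Zbtb20, Bcl11b and Bcl11a held 3, 9 and 23 CG pairs, and both RefSeq starts of Lhx2 held 34 and 29. The 4 factors above 250 TPM therefore had 3 to 16 CG pairs and a GC content of 43.0% to 55.3%, and the 4 below 100 TPM had 23 to 37 CG pairs and a GC content of 63.0% to 74.7%, with no overlap. This split was noticed after the levels were known and is a description of 8 genes, with no test. It held only for levels per length, since in CPM Bcl11a with 23 CG pairs was above Neurod6 with 3, at 178 and 169 CPM. With the longest coding transcript the same 4 factors were the highest. Bcl11b then had 190 TPM and Bcl11a 127 TPM, so neither the cut at 250 TPM nor that at 100 TPM held. Among 9812 detected protein-coding genes with a RefSeq promoter the median was 21 CG pairs, and 33.8% of them had at most 16. The Spearman correlation of CG pairs with TPM was 0.19 across genes, which share libraries and base composition. The 510 of these genes above 250 TPM had a median of 23 CG pairs, so abundant genes as a class were not low in CG pairs. E-boxes with the letters CANNTG, which read the same way on both strands, occurred 3 times in the promoter of Neurod2, 2 times in those of Neurod6 and Zbtb20, and once in those of Neurod1, Bcl11a and Emx1 and at the second start of Lhx2. None was found in the windows of Bcl11b and the first start of Lhx2. Such an E-box is present in the first listed promoter of 72.1% of genes. The more specific letters CAGATG, searched on both strands, occurred in the promoter of Neurod2 and at the second start of Lhx2, and in the first listed promoter of 17.2% of genes. The RefSeq start of Zbtb20 lies 371403 bp inside the outermost exon edge of the table, so its window stands for only 1 of the starts of this gene. The starts used for Bcl11a and Emx1 and the second start of Lhx2 lie 2639, 493 and 12027 bp inside that edge. Their windows thus lie within the annotated genes, and the CG pairs counted there may not be those of the outermost start.

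**Figure D1:**
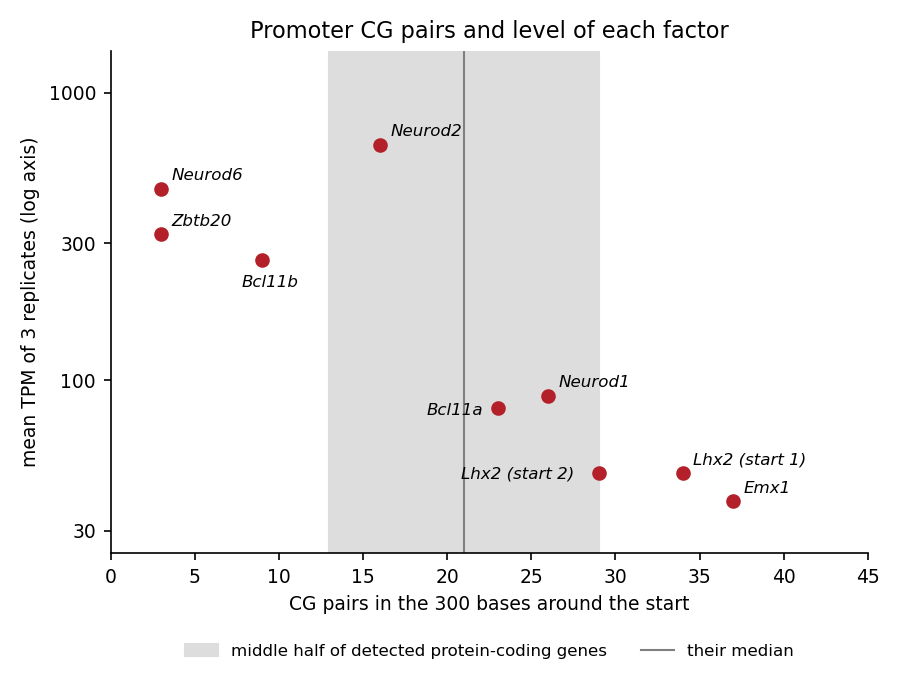
Mean TPM of 3 replicates on a log axis against the number of CG pairs in the 300 bases around each RefSeq start, with 1 point per start and 2 starts for Lhx2, a grey band over the quartiles of detected protein-coding genes (13 to 29 CG pairs) and a line at their median of 21. The factors above 250 TPM sit at 3 to 16 CG pairs and those below 100 TPM at 23 to 37.

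All 8 factors were detected at a CPM, the count scaled to the library total, of 1 or more in every replicate. This held for 12471 of 21883 nuclear protein-coding genes, or 57% of them. The median of the 8 factors was 186, 166 and 176 TPM in replicates 1, 2 and 3, or 176 ± 10.1 TPM (SD, n = 3), against a median of 37.6 TPM over the detected protein-coding genes. Their means spanned a 17.4-fold range.

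Neurod2 and Neurod6 were the most abundant of the 8. Neurod2 had 649, 678 and 654 TPM in replicates 1, 2 and 3, from 17008, 9404 and 5300 counts. Its mean of 660 ± 15.2 TPM (SD, n = 3) placed it at rank 148 of 21883 protein-coding genes. The 3 replicates lay within 1.04-fold of each other, and the rank stayed between 142 and 157. Neurod6, also known as NEX and a marker of pyramidal neurons, had 450, 476 and 466 TPM, from 8075, 4518 and 2583 counts, with a mean of 464 ± 12.8 TPM and a rank of 255. No replicate of Neurod6 reached the lowest replicate of Neurod2. The ratio of Neurod2 to Neurod6 was 1.44, 1.42 and 1.40 in the 3 replicates, and hence nearly constant although the libraries differed 3.04-fold in depth.

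Neurod1, which in the adult hippocampus is best known from the granule neuron lineage of the dentate gyrus, was far lower. It had 95.9, 79.5 and 89.9 TPM, from 2183, 958 and 633 counts, with a mean of 88.4 ± 8.33 TPM (SD, n = 3). Neurod2 exceeded Neurod1 by 2.89 ± 0.17 on the log2 scale of TPM plus 1, and Neurod6 exceeded Neurod1 by 2.38 ± 0.17, each in 3 of 3 replicates. Of the summed TPM of the 3 NeuroD genes, Neurod2 made up 54.4% ± 0.47, Neurod6 38.3% ± 0.51 and Neurod1 7.30% ± 0.80. Prox1, a homeodomain factor of dentate granule neurons, had 163, 129 and 160 TPM. Both Neurod1 and Prox1 were lowest in replicate 2, and the ratio of Neurod1 to Prox1 was 0.590, 0.618 and 0.561. The part of granule neuron RNA in the level of Neurod1 was not tested.

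**Figure D2:**
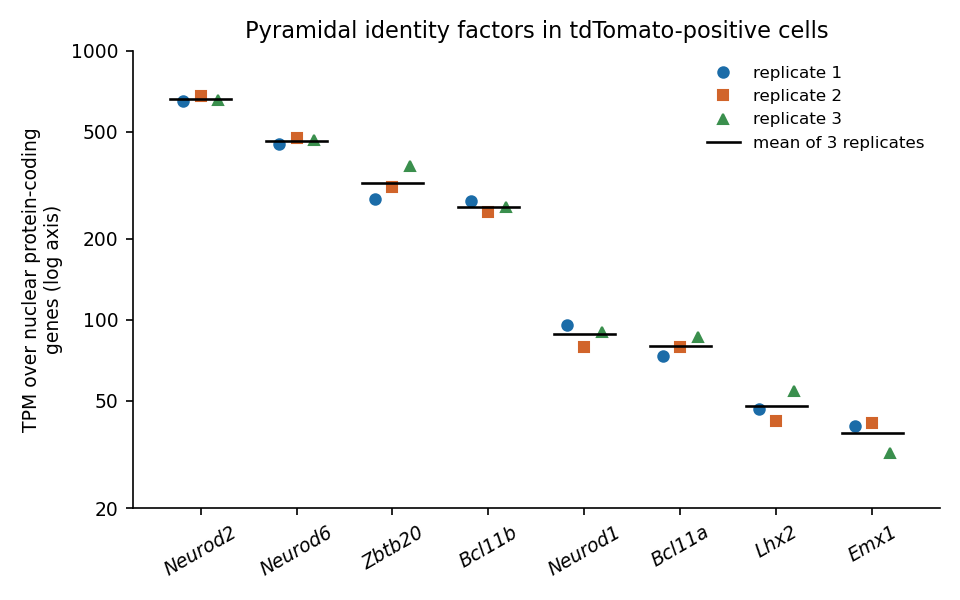
TPM of each of the 8 factors on a log axis, with 1 point per replicate and a line at the mean of 3 replicates. The factors are ordered by mean, which runs from 660 TPM for Neurod2 to 38.0 TPM for Emx1, and a gap separates Bcl11b at 263 TPM from Neurod1 at 88.4 TPM.

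Zbtb20 took more counts than any other of the 8, and it was the factor whose TPM differed most between replicates in absolute terms. It had 72227, 42416 and 29611 counts, which gave 282, 312 and 374 TPM and a mean of 323 ± 46.7 TPM (SD, n = 3). Replicate 3 was the highest and replicate 1 the lowest, a 1.33-fold range. Zbtb20 is also expressed by astrocytes and dentate granule neurons in the mouse. The summed TPM of the 7 astrocyte markers was 260, 162 and 327 in replicates 1, 2 and 3, and that of the 6 dentate granule markers was 1060, 960 and 997. Replicate 3 was the highest for the astrocyte sum and not for the granule sum. Both sums were lowest in replicate 2, unlike Zbtb20. The microglia marker sum, at 48.4, 57.4 and 69.2 TPM, and Bcl11a, at 73.4, 79.5 and 86.7 TPM, rose in the order of Zbtb20. Endothelial and mural marker sums were likewise highest in replicate 3, at 74.3 and 48.9 TPM, against 10.4 and 12.4 TPM in replicate 1. The part of these cells in the level of Zbtb20 was not tested. Without length, Zbtb20 ranked 12 among protein-coding genes with 1674 ± 186 CPM, while its rank by TPM was 474. Its annotated introns also hold other genes, such as the pseudogene BC002163 with 949, 572 and 337 counts, none of whose bases lie in its exons.

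Bcl11b was higher than its paralog Bcl11a under each measure tried. BCL11B is a known marker of CA1 pyramidal and dentate granule neurons in the hippocampus, and the part of granule neuron RNA in the level of Bcl11b was not tested. Bcl11b had 276, 251 and 262 TPM, with a mean of 263 ± 12.05 TPM (SD, n = 3), and Bcl11a had 73.4, 79.5 and 86.7 TPM, with a mean of 79.9 ± 6.69 TPM. Every replicate of Bcl11b lay above every replicate of Bcl11a, with a ratio of 3.76, 3.16 and 3.02. The replicates moved in different ways, since replicate 1 was the highest for Bcl11b and the lowest for Bcl11a. The size of this difference depended on the length used. The merged exons of Bcl11a amount to 13175 bp, but its longest annotated coding transcript is only 5989 bp, a ratio of 2.20, while both lengths are 8111 bp for Bcl11b. With the longest coding transcript the difference was 0.58 on the log2 scale, in place of 1.71 ± 0.16.

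Lhx2 and Emx1 were the least abundant, and both still lay near or above the median of detected protein-coding genes. Lhx2 had 46.6, 42.2 and 54.5 TPM, from 1707, 819 and 617 counts, with a mean of 47.8 ± 6.20 TPM (SD, n = 3). Emx1 had 40.5, 41.5 and 32.0 TPM, from 737, 400 and 180 counts, with a mean of 38.0 ± 5.23 TPM. Replicate 3 was the highest for Lhx2 and the lowest for Emx1. The replicates of both genes did not overlap, since the lowest of Lhx2 was 42.2 TPM and the highest of Emx1 was 41.5 TPM, a narrow gap beside their SDs. Their difference of 0.32 ± 0.38 on the log2 scale was smaller than its SD over replicates.

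In the order of levels, 27 of the 28 pairs of factors kept 1 direction in all 3 replicates. The exact sign-flip permutation test of the differences within replicates (two-sided) cannot give a p under 0.25 with n = 3, and it gave p = 0.25 for these 27 pairs, or 0.26 after Benjamini-Hochberg adjustment over the 28. The remaining pair was Neurod1 and Bcl11a, which differed by 0.38, -0.0012 and 0.05 in replicates 1, 2 and 3 (exact permutation test, two-sided, p = 0.5). These neighbours thus could not be ordered. Zbtb20 exceeded Bcl11b by 0.03, 0.31 and 0.51 in the replicates, and this mean of 0.28 was close to its SD of 0.24. Neurod6 exceeded Zbtb20 by 0.53 ± 0.19. The widest step between neighbours was from Bcl11b to Neurod1, 1.57 ± 0.07 on the log2 scale, and the 4 factors above it were above the 4 below it in every replicate. With the longest coding transcript Bcl11b was instead followed by Bcl11a and exceeded it by 0.58, so the width of this step depended on the length.

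The order of the 8 factors also depended on how length was treated. With the longest coding transcript in place of the merged exons, Bcl11a moved above Neurod1, at 127 ± 9.96 TPM and 63.8 ± 6.22 TPM, with no overlap of replicates, and the other 6 kept their places. Without length, Zbtb20 came first at 1674 CPM, followed by Bcl11b at 361 CPM, Neurod2 at 351 CPM, Bcl11a at 178 CPM and Neurod6 at 169 CPM. Neurod1, Lhx2 and Emx1 were the lowest under that measure, at 40.9, 35.4 and 14.1 CPM.

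**Figure D3:**
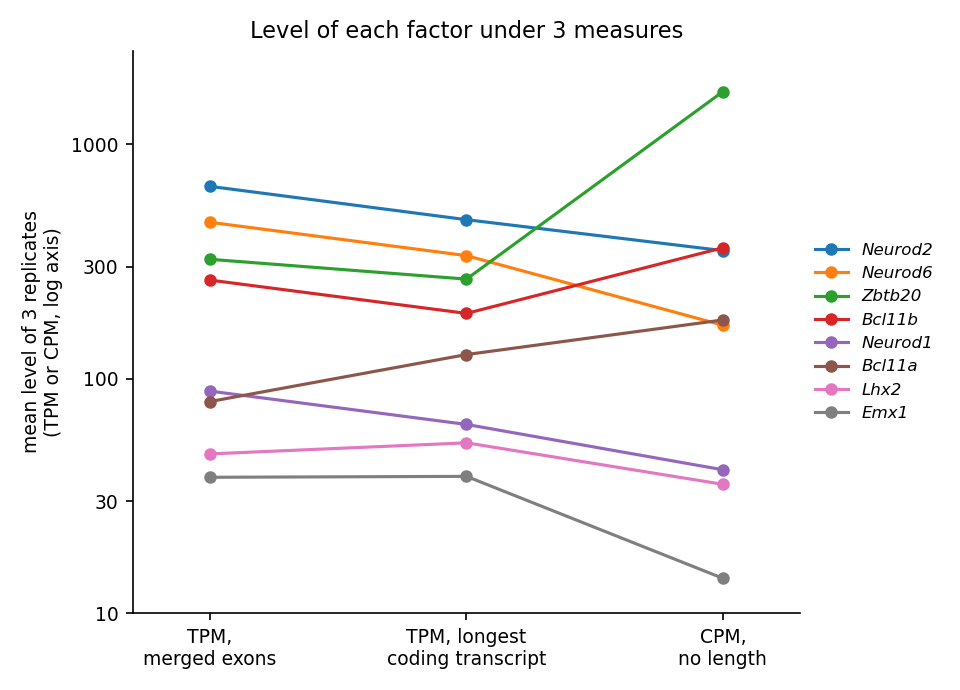
Mean level of each factor on a log axis as TPM over merged exons, as TPM over the longest coding transcript and as CPM without length. The line of Bcl11a crosses that of Neurod1 at the middle measure, and Zbtb20 is the highest only in CPM, at 1674.

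The spread between replicates was measured by the coefficient of variation (CV) of counts normalized by median-of-ratios size factors. It followed the order of the levels only in part. The lowest CVs were those of the most abundant factors and the highest that of the least abundant, but Zbtb20 and Bcl11a departed from this. Neurod6 and Neurod2 had CVs of 3.65% and 4.51%, and Bcl11a had one of 4.71%. The CVs of Bcl11b, Lhx2, Zbtb20 and Neurod1 were 6.98%, 10.1%, 10.6% and 10.8%. Emx1 had the highest CV, 17.0%, at percentile 83.6 of the detected protein-coding genes, whose median was 8.75%. Counting error alone would give a CV of 5.60% for Emx1, 3.38% for Lhx2 and 3.21% for Neurod1, and of 0.487% for Zbtb20. The CV of Zbtb20 was thus 10.6% with almost no counting error. For Emx1 counting error was a larger part of the spread than for Zbtb20, but 5.60% still lay far below its CV of 17.0%. The spread of Emx1 rested on replicate 3, since its CV was 0.178% without it, against 21.9% and 21.7% without replicates 1 and 2. In all, 4 of the 8 factors varied less than the median gene.

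**Figure D4:**
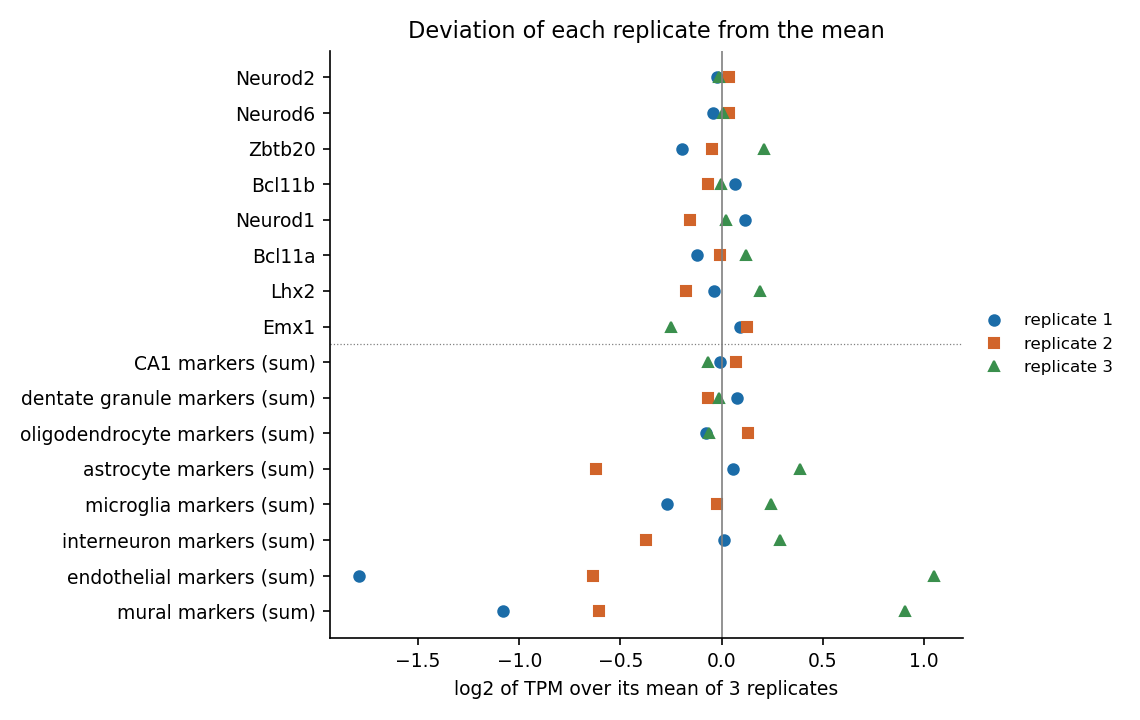
Log2 of the TPM in each replicate over the mean of the 3 replicates, for the 8 factors above the dotted line and for the summed TPM of marker lists below it. The factors lie between -0.25 and 0.21, while endothelial marker sums run from -1.79 in replicate 1 to 1.05 in replicate 3.

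Among the bHLH partners and inhibitors, the E protein gene Tcf4 was the most abundant, and 3 of the 4 Id genes lay below Emx1. E proteins are the partners with which NeuroD factors bind DNA, while Id proteins bind E proteins and keep them from DNA. Tcf4 had 250, 262 and 293 TPM and made up 79.7% ± 1.76 of the TPM of the 3 E protein genes, with Tcf3 at 46.0 ± 3.71 TPM and Tcf12 at 22.0 ± 1.47 TPM (SD, n = 3). The summed TPM of the NeuroD genes was 3.62 ± 0.21 times that of the E protein genes. This direction held only per length. Tcf4 alone, with merged exons of 27382 bp, had 56974, 31643 and 20685 counts, more than the NeuroD genes together in each replicate. The 4 Id genes together had 60.9 ± 11.7 TPM, of which Id2 gave 40.1 ± 7.68 TPM, above Tcf12 and near Emx1, and 3 of 4 were detected. Of 9 further proneural and neuronal bHLH genes, 3 were detected, and Bhlhe22 was the most abundant with 207 ± 21.3 TPM. Neurod4 had 13, 2 and 1 counts in replicates 1, 2 and 3. Neurog1, Neurog3 and Atoh1, which act in progenitors or other neurons, had 0 counts in every replicate. A count of 0 allows up to 3 counts, or 0.213 to 0.690 TPM for Neurog1 across the replicates, and this limit covers counting error only. Neurog2 and Atoh7 lay between, at 6.81 and 6.33 TPM.

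For the homeodomain factors, Emx2 was lower than Emx1, the further LIM homeodomain genes were lower than Lhx2, and most LIM cofactor genes were higher than Lhx2. Emx2, the paralog of Emx1, had 15.6, 13.0 and 20.7 TPM, and the ratio of Emx1 to Emx2 was 2.59, 3.18 and 1.55. Pax6 and Eomes, which act in cortical progenitors, had 0.618 and 0.0919 TPM, and Eomes had 2, 4 and 0 counts. Of 11 further LIM homeodomain genes only Lhx9 was detected, with 9.75 ± 0.28 TPM (SD, n = 3). Per length, Lhx2 was thus 4.91 ± 0.72 times as abundant as the next LIM homeodomain gene of the list. Without length the difference was smaller, with 1707, 819 and 617 counts for Lhx2 against 796, 406 and 233 for Lhx9. All 10 LIM cofactor genes were detected, with a median of 118 ± 7.49 TPM, although Rlim, Lmo2 and Ssbp2 lay below both Lhx2 and Emx1, at 33.8, 29.8 and 29.0 TPM. Ldb1, the adaptor that LIM homeodomain proteins need, had 134, 133 and 133 TPM, and Lmo4, a LIM-only protein that competes for LDB1, had 308 ± 4.63 TPM.

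All 26 genes of BAF complex subunits were detected, and their median level was 65.2 ± 2.96 TPM (SD, n = 3). Brd9 was the most abundant, with 266 ± 16.9 TPM, followed by Smarcc2, with 251 ± 8.92 TPM, and Bcl7c was the lowest, with 4.14 ± 0.51 TPM. Actl6b, a subunit of the neuronal form of the complex, had 172, 185 and 162 TPM, against 17.8, 16.3 and 14.9 TPM for Actl6a, its counterpart in progenitors. The ratio of Actl6b to Actl6a was 10.6 ± 0.90. Other subunits with alternative forms did not all differ this way. Ss18l1 had 96.8 TPM and Ss18 had 42.0 TPM. Dpf1 and Dpf3 had 92.0 and 11.6 TPM, and Dpf2 and Phf10 had 56.1 and 45.6 TPM. Of the 12 ZBTB genes set beside Zbtb20, 11 were detected, with a median of 31.1 ± 0.54 TPM. Zbtb18, a repressor that acts in the development of cortical projection neurons, had 622, 551 and 660 TPM, and the ratio of Zbtb18 to Zbtb20 was 2.21, 1.76 and 1.77. Without length the direction was the reverse, with 31816, 14932 and 10442 counts for Zbtb18 against 72227, 42416 and 29611 for Zbtb20. Zbtb7c was the lowest of the list, with 24, 6 and 10 counts.

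Factors that define projection neurons of the neocortex had a lower median level than the 8 factors, although the 2 sets overlapped in level. Of the 20 genes of this list 18 were detected, the median level was 34.6 ± 3.68 TPM (SD, n = 3), and 12 of the 20 lay below Emx1, the lowest of the 8. Pou3f1, which is also a CA1 marker, was the highest with 249 ± 2.66 TPM, and both it and Bhlhe22 lay above Neurod1, Bcl11a, Lhx2 and Emx1. Fezf2, a factor of deep-layer neurons in the neocortex, had 37.6 ± 2.08 TPM, and Tbr1 had 33.3 ± 5.81 TPM. Foxp2 and Otx1 were not detected. The nuclear factor I genes and further hippocampal factors differed from the 8 factors by less than the spread between replicates. All 12 were detected, their median was 159 ± 20.6 TPM, and the 8 factors lay below them by 0.02 and 0.18 in replicates 1 and 3 and above them by 0.06 in replicate 2 on the log2 scale. Klf9 was the highest of these, with 428 ± 38.8 TPM, and Meis2 the lowest, with 24.1 ± 1.20 TPM.

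The median of the 8 factors was far above the medians of the interneuron, glial, and microglial and vascular factor lists. This did not extend to every factor of another cell type, since Prox1 of dentate granule neurons, at 151 TPM, lay above Neurod1, Bcl11a, Lhx2 and Emx1. All 16 interneuron factors lay below Emx1, their median level was 0.277 ± 0.132 TPM (SD, n = 3), and only Nr2f2 was detected, at 10.9 ± 0.18 TPM. The Dlx genes, which specify GABAergic neurons, had at most 22, 7 and 14 counts, in Dlx1. On the log2 scale the median of the 8 factors exceeded that of the interneuron factors by 6.92 ± 0.06, in 3 of 3 replicates (exact permutation test, two-sided, p = 0.25). Glial factors had a median of 7.51 ± 2.27 TPM, 4.21 ± 0.29 below the 8 factors, and 7 of 10 were detected. Of these, Sox8 had 52.0 ± 1.73 TPM, above the means of Lhx2 and Emx1, and Olig1 had 38.0 ± 12.6 TPM, at the mean of Emx1 although replicate 2 of Olig1 had only 25.9 TPM, and Nkx2-2 was the lowest with 0.467 ± 0.205 TPM. Microglial and vascular factors had a median of 1.28 ± 0.94 TPM, and all 10 lay below Emx1, with Sox18 the highest at 8.10 ± 2.53 TPM and Runx1 the lowest at 0.0654 ± 0.0462 TPM. With 1 condition and no unsorted tissue analysed here, these values are levels and not enrichments.

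**Figure D5:**
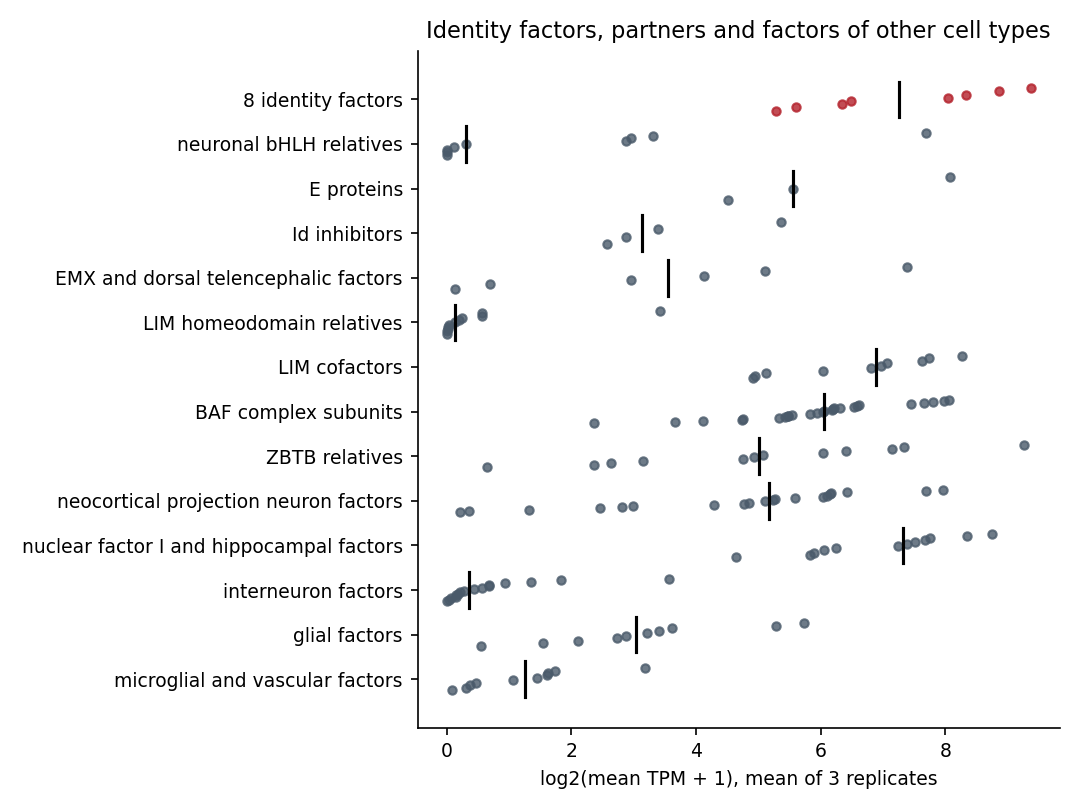
Log2 of the mean TPM plus 1 for each gene, with 1 point per gene and a black tick at the median of each list. The 8 identity factors lie between 38.0 and 660 TPM, all 16 interneuron factors and all 11 LIM homeodomain relatives lie below 38.0 TPM, and the LIM cofactors have a median of 118 TPM.

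The genes with levels most like each factor were found among 151 genes of the transcription factor and cofactor lists, the 8 factors included, by the root mean square difference of log2 TPM plus 1 over the 3 replicates. Zbtb18 was the nearest to Neurod2, at 0.18, with Neurod6 next at 0.51. Klf9 was the nearest to Neurod6, at 0.17, and Lmo4 and Nfix were the nearest to Zbtb20, at 0.16 and 0.18. Bcl11b lay closest to the BAF subunit genes Brd9 and Smarcc2, at 0.08 and 0.09. Bcl11a lay closest to Zbtb4 and Foxp1, at 0.06 and 0.09, and Neurod1 to Ss18l1 and Arid1a, at 0.15 and 0.16. Tle4 and Smarcc1 were the nearest to Lhx2, at 0.10 and 0.16, and Zbtb45 and Fezf2 to Emx1, at 0.21 and 0.23. Nearness to BAF subunit genes was not particular to Bcl11b. Ss18l1, Arid1a and Smarcc1 are BAF subunit genes as well, and neither gene nearest to Bcl11a is one. BAF subunits made up 26 of the 151 genes. This likeness is one of level over 3 replicates of 1 condition.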

How the data were processed

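The RNA of tdTomato-positive cells was sequenced in 3 biological replicates as 150 bp paired-end reads. The authors deposited raw counts per gene with the length of the merged exons, and their processing notes list STAR and featureCounts with the builds mm10 and GRCm38. The annotation, the strand setting and whether reads or fragments were counted are not given in the sources used here. Gene names and biotypes came from GENCODE vM21, which named 52489 of 52636 genes. TPM was scaled over 21883 nuclear protein-coding genes, with all genes as an alternative. Log2 values used a pseudocount of 1. A gene was called detected where all 3 replicates had a CPM of 1 or more. Size factors were the median-of-ratios of DESeq2 1.42.0, with TMM of edgeR 4.0.16 in R 4.3.3 as the alternative, and no test of differential expression was run. Differences between factors within replicates were tested by an exact sign-flip permutation. Python 3.11.15 with numpy 2.4.6, pandas 2.3.3 and scipy 1.17.1 was used, and the level and CV steps were tested on simulated data. Named genes were the 8 factors, the highest and lowest genes of each list (some are not reported here), known partners, overlapping genes and the 2 nearest genes by level. Rlim, Lmo2, Neurog2, Atoh7, Neurod4, Foxp2, Otx1, Pax6, Zbtb7c and the other genes given with near-zero counts were added after their values were seen. The BAF subunit genes Actl6a, Actl6b, Ss18, Dpf1, Dpf2, Dpf3 and Phf10 were also named outside this rule. The factors and lists were chosen with earlier results of these data known. Alternatives were the scaling, length, pseudocount, detection limit, size factors and leaving out each replicate.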

Additional observations from a re-analysis of the deposited data

How the results depend on the processing

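The order of the 8 mean levels held when TPM was scaled over all genes and without each replicate, whereas the length used changed some of them. Over 56 results and 316 alternatives, the change stayed within the replicate SD (or within 1.5 times for counts and CVs) in 230, was larger in 83 and turned the direction in 3. Without length, Neurod6 lay below Zbtb20 by -3.30 on the log2 scale, and Neurod1 lay below Bcl11a by -2.10, or by -0.98 with the longest coding transcript. The median of the 8 factors was 55.6 TPM scaled over all genes and 158 TPM with the longest coding transcript. Without length, Neurod2 exceeded Neurod6 by 1.05 and Neurod1 by 3.08, Neurod6 exceeded Neurod1 by 2.02, and Bcl11b exceeded Bcl11a by 1.02, against 0.58 with the longest coding transcript. The 8 factors exceeded interneuron factors by 5.48 with TPM over all genes, 7.18 without length and 8.75 with a pseudocount of 0.1. They exceeded glial factors by 3.88 with TPM over all genes, 4.53 with the longest coding transcript and 5.38 without length. They exceeded microglial and vascular factors by 5.16 with TPM over all genes and 7.08 with a pseudocount of 0.1. The pseudocount and the scale act most on lists near 0, and the other causes were not tested. Without 1 replicate, Zbtb20 had 297 to 343 TPM and Emx1 had 36.2 to 41.0 TPM. All 8 factors were detected under each limit tried, a CPM of at least 10 included. No paired analysis was possible because a single group was analysed, and the differences between factors were already taken within replicates. The p-values cannot fall below 0.25 with 3 replicates, and so cannot show that a difference is absent.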
